A study of Mus musculus with 360 samples.

Results

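Chaperones and disulfide isomerases of the endoplasmic reticulum (ER) were followed in single cells of C1498, a mouse line labelled as acute myeloid leukemia, before and after a short heat treatment. The 10 genes are Hspa5, Hsp90b1, Pdia3, Pdia4, Pdia6, Calr, Canx, Dnajb11, Sdf2l1 and Manf. They were chosen by name, as 10 of the 24781 genes of the expression table, and all 10 were present in it. Cultures had been exposed to 45 °C for 10 min, or handled for the same time at 37 °C as the control, and single imaged cells were then picked by an automated instrument. No other treatment or genotype is given for any group, and all groups share the same cell line. The 37 °C arm held 11 cells taken at -1 h, which is before heating, and 11, 6, 6 and 11 cells at 1, 5, 10 and 15 h from the end of heating. The 45 °C arm held 6 cells at -1 h, then 13 at 1 h, 52 at 10 h and 21 at 15 h. All the rest of the 360 cells were heated cells at 5 h, which made it the largest of the 10 groups. Of the cells, 51 in 6 groups were unheated: the whole 37 °C arm and the 45 °C arm at -1 h.

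Proteins that enter the secretory pathway fold inside the ER. There an HSP70 (BiP, from Hspa5) and an HSP90 (GRP94, from Hsp90b1) hold unfolded chains, a pair of lectins (calnexin and calreticulin, from Canx and Calr) hold glycoproteins, and disulfide isomerases (the Pdia genes) form and rearrange disulfide bonds. When unfolded proteins build up in the ER, the sensors ATF6, IRE1 and PERK start the unfolded protein response, which is known to raise transcription of genes of this set through the ER stress element in their promoters. Heat shock in the cytosol works through another factor, HSF1, and another motif, the heat shock element.

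The ER stress element is printed for the members because it is the motif already known from promoters of genes of this set. Its presence among them, set beside its share of all genes, is thus no independent result. RefSeq promoters (assembly GRCm38.p6, from 250 bases before to 50 bases after the start) were available for 9 of the 10 genes, all but Manf. The motif, CCAAT and CCACG with any 9 bases between them, was read on both strands and was present in 5 of these 9. Of all 27025 genes with a promoter of that length, 37 (0.137%) held it. Each stretch runs 5′ to 3′ in the direction of the gene, with the match in capitals, and the matches on the reverse strand read CGTGG first and ATTGG last. A match describes letters only.
Hspa5, chr2:34772020-34772048, plus strand: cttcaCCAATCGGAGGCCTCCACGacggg
Hsp90b1, chr10:86705618-86705676, minus strand: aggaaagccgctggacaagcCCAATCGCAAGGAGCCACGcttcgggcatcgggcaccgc
Hsp90b1, chr10:86705513-86705571, minus strand: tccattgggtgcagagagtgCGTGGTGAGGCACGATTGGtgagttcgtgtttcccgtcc
Pdia6, chr12:17266471-17266529, plus strand: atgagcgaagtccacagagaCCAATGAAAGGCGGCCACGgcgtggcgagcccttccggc
Calr, chr8:84847055-84847113, minus strand: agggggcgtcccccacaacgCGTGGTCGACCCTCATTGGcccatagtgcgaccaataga
Canx, chr11:50325780-50325838, minus strand: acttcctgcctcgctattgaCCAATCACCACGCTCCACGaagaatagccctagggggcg

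The matches of Hspa5 and Pdia6 began 65 and 98 bases before the RefSeq start, and those of Canx, Calr and Hsp90b1, which held 2, further upstream. Dnajb11 held no such match, but the related ER stress element II, ATTGG and CCACG with any 1 base between them, which was searched after the first motif had been, began at base 8 after its start, as ATTGGCCCACG (chr16:22857852-22857862, plus strand). That motif was present in 12 of the 27025 genes (0.0444%), among them Herpud1, an ER membrane protein of the degradation machinery. Neither motif was found in the windows of Pdia3, Pdia4 and Sdf2l1. The heat shock element, searched as GAA, TTC and GAA with any 2 bases between neighbours, was found in 0 of the 9 member promoters and in 0.662% of all genes. It was present in 2 of 17 promoters of cytosolic heat shock chaperone genes (Hsph1 and Chordc1) and in 2 of 9 of mitochondrial chaperone genes (Hspd1 and Hspe1).

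RNA was measured as molecules with a molecular barcode (UMIs) counted per gene and cell. Within a group the UMIs were added up over its cells, and a level is the gene's share of that total, scaled to 1e6 (CPM), so it says nothing of the amount of RNA per cell. For a log2 ratio of levels each sum was first raised by 0.5 UMI. Group totals ran from 173274 UMIs (37 °C, 10 h) to 6809101 (45 °C, 5 h), and the median cell of a group from 18741 (45 °C, 10 h) to 40544 (37 °C, -1 h). Since no label names a culture, every group counted as 1 sample. The comparison of 45 °C with 37 °C at each time is thus a ratio between 2 samples, with no p-value, and its 95% interval covers counting error only. Between 4 and 12 cells in each heated group from 5 h on had under 10000 UMIs, as did 1 cell of the 37 °C group at 15 h. In 2, 7 and 2 heated cells at 5, 10 and 15 h the ribosomal RNA precursor Rn45s took over 50% of the UMIs. The labelled myeloid type did not show in its markers: 10 of 10 myeloid genes (among them Lyz2, Mpo and Spi1) had no UMI in any unheated cell, and their sum was at most 3.52 CPM in a heated group. The sum of 4 general leukocyte genes was 1977 to 2403 CPM in the unheated groups and 1618 to 2333 CPM in the heated ones. Of 7 T cell genes measured, Cd3e and Cd3g made up nearly all of a sum of 361.0 to 474.1 CPM in unheated groups and 317.7 to 471.2 CPM in heated ones. Plasma cells, a cell type rich in ER chaperones, left little trace: the sum of 6 markers was 0 to 8.99 CPM in unheated and 0 to 2.04 CPM in heated groups, with Jchain, Sdc1 and Tnfrsf17 at 0 in all cells.

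ER chaperone RNA as a whole stood near the control 1 h after heating and lower at every later time. Together the 10 genes held 3528 CPM in the 37 °C cells and 3581 CPM in the 45 °C cells at 1 h. At 5 h the sums were 3684 and 2631 CPM, at 10 h 3538 and 1939 CPM, and at 15 h 2689 and 1997 CPM. Before heating the sum had been 3080 CPM at 37 °C and 3323 CPM at 45 °C. The heated groups at 10 and 15 h lay below all 6 unheated groups. The 5 h sum lay just below the lowest of them, that of 37 °C at 15 h, and not without 1 cell of that control, cell 11, which took its sum to 2465 CPM. It was also lost without cell 2 or cell 3, each of which left 2626 CPM.

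Hspa5, the HSP70 of the ER lumen, which also binds the stress sensors in unstressed cells, was the gene that stood lowest against its controls early on. Its level in the 37 °C arm, in order of time from -1 h to 15 h, was 687.3, 892.1, 799.9, 611.7 and 631.3 CPM. In the 45 °C arm it was 703.6 CPM before heating and then 606.8, 335.1, 421.5 and 396.7 CPM. The heated groups at 5, 10 and 15 h lay below all 6 unheated groups, and the 5 h level was the lowest of the 10. The 1 h level lay just below them too, but not with 1 control cell left out, either cell 1 or 4 at 10 h (489.8 and 593.3 CPM) or cell 11 at 15 h (551.0 CPM). The log2 ratio of 45 over 37 °C was 0.04 (-0.26 to 0.33) before heating, -0.56 (-0.79 to -0.32) at 1 h, -1.26 (-1.47 to -1.04) at 5 h, -0.54 (-0.85 to -0.22) at 10 h and -0.67 (-0.92 to -0.42) at 15 h. At 1 h the 37 °C group was the highest of all 10: against the 45 °C group before heating the log2 ratio of the heated cells at 1 h was -0.22. At 15 h the ratio was -0.47 without 1 control cell, cell 11, which had 40 of the group's 281 Hspa5 UMIs.

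**Figure D1:**
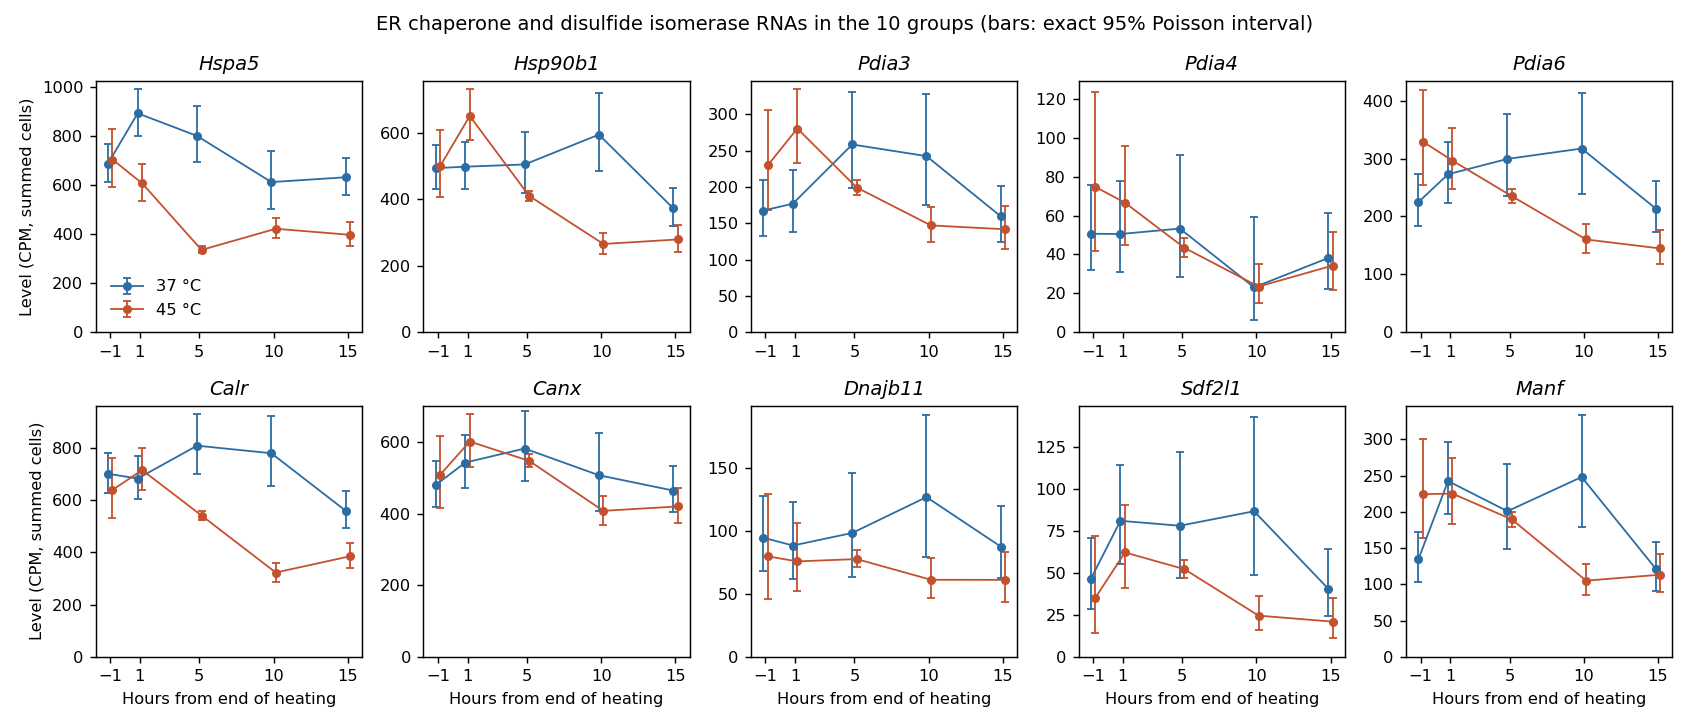
Level of each of the 10 genes (y axis, CPM of the summed cells, each panel with its own scale from 0) against hours from the end of heating (x axis), in the 37 °C arm (blue) and the 45 °C arm (orange), with exact 95% Poisson intervals for counting error. Hspa5 and Calr are below every unheated group from 5 h on (Calr at 5 h only with control cell 11), and Hsp90b1 and Pdia6 at 10 and 15 h.

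The partners of Hspa5 had fewer UMIs. Dnajb11, a DNAJ cochaperone that hands clients to the HSP70, stood at 94.7, 88.5, 98.5, 126.97 and 87.6 CPM in the 37 °C arm in the same order. The 45 °C arm stood at 79.8 CPM before heating and at 75.8, 77.7, 61.2 and 61.2 CPM afterwards. All 4 heated groups lay below the 6 unheated ones, but by little at 1 and 5 h: without cell 6 of the 45 °C group before heating, which then stood at 69.4 CPM, neither did, and without its cell 5 (77.1 CPM) the 5 h group did not. At these times the log2 ratios were -0.22 (-0.95 to 0.51) and -0.37 (-0.93 to 0.31). At 10 h the ratio was -1.07 (-1.78 to -0.28), and at 15 h -0.52 (-1.19 to 0.15).

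Sdf2l1, which binds Dnajb11 and keeps clients of the HSP70 soluble, had the lowest ratio of the 10 genes at 10 h and at 15 h. The 37 °C arm stood at 46.3, 80.9, 77.9, 86.6 and 40.4 CPM. The 45 °C arm stood at 34.9 CPM before heating and at 62.1, 52.1, 24.5 and 20.9 CPM afterwards. The heated groups at 10 and 15 h were the lowest of the 10, and the 45 °C group before heating was the next, so the heated levels at 1 and 5 h lay inside the unheated range. The log2 ratio was -0.38 (-1.18 to 0.40) at 1 h, -0.62 (-1.24 to 0.17) at 5 h, -1.84 (-2.81 to -0.79) at 10 h and -0.94 (-2.07 to 0.14) at 15 h. These ratios rest on 15 control UMIs at 10 h and 18 at 15 h, and the ratio at 5 h is 0.48 when the 45 °C cells before heating, with 7 UMIs, serve as the control.

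Manf, a small ER protein that binds the HSP70 and is secreted on ER stress, stood at 134.4, 242.6, 201.01, 248.2 and 121.3 CPM in the 37 °C arm. In the 45 °C arm it was 224.6 CPM before heating and 225.2, 189.6, 105.1 and 113.4 CPM afterwards. The unheated groups alone spanned more than the difference at 1, 5 and 15 h, where the log2 ratios were -0.11, -0.10 and -0.10, each with an interval that held 0. At 10 h the log2 ratio was -1.25 (-1.77 to -0.69). Manf was also the only member at least 1.5-fold apart before heating, 0.74 (0.15 to 1.32) higher in the 45 °C arm on the log2 scale.

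Hsp90b1, the HSP90 of the ER, stood higher at 1 h and lower later. Its levels in the 37 °C arm were 493.5, 497.9, 504.6, 594.4 and 372.9 CPM. At 45 °C they were 499.0 CPM before heating and 650.4, 410.0, 265.3 and 278.9 CPM afterwards. The 1 h level was the highest of all 10 groups and the 10 h level the lowest. The log2 ratio was 0.38 (0.12 to 0.66) at 1 h, -0.30 (-0.56 to -0.03) at 5 h, -1.17 (-1.50 to -0.82) at 10 h and -0.42 (-0.73 to -0.11) at 15 h. At 1 h this HSP90 and the HSP70 Hspa5 thus stood on opposite sides of the control, with intervals that do not overlap.

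The lectin chaperones went apart. Calr, the soluble lectin, stood at 700.5, 682.3, 808.1, 779.1 and 559.4 CPM in the 37 °C arm. At 45 °C it was 638.7 CPM before heating and 714.8, 540.7, 322.5 and 384.8 CPM afterwards. The heated groups at 5, 10 and 15 h were the lowest of the 10, with log2 ratios of -0.58 (-0.79 to -0.37), -1.28 (-1.57 to -0.97) and -0.54 (-0.80 to -0.28). Without control cell 11 the 37 °C group at 15 h stood at 491.6 CPM, below the heated 5 h level. At 5 h Calr was 1.498-fold lower, just inside the 1.5-fold limit used for the counts below, and Sdf2l1, at 1.53-fold, was just outside it. Canx, the membrane-bound lectin with a like client range, stood at 480.2, 543.4, 582.5, 507.9 and 465.1 CPM at 37 °C, and at 509.0 CPM before and 602.2, 548.1, 408.2 and 420.6 CPM after heating in the 45 °C arm. Its log2 ratios of 0.15, -0.09, -0.32 and -0.15 all had intervals that held 0, and at 10 h the interval was -0.65 to 0.03. At 10 h the intervals of Calr and Canx did not overlap.

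Among the disulfide isomerases, Pdia3, the partner of both lectins, stood at 167.4, 176.9, 258.4, 242.4 and 159.5 CPM in the 37 °C arm. At 45 °C it was 229.5 CPM before heating and 280.4, 199.1, 146.96 and 141.7 CPM afterwards. The heated cells were highest of all groups at 1 h and lowest at 10 and 15 h. Neither held with 1 cell left out: the 37 °C group at 5 h stood at 281.3 CPM without cell 4, and that at 15 h at 139.5 CPM without cell 11. The log2 ratio at 1 h was 0.66 (0.23 to 1.11), and it was 0.28 against the 45 °C cells before heating. It was -0.39 (-0.74 to 0.01) at 5 h, -0.73 (-1.23 to -0.19) at 10 h and -0.17 (-0.63 to 0.29) at 15 h.

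Pdia6, an isomerase that associates with the HSP70, stood at 224.7, 272.9, 299.5, 317.4 and 213.4 CPM at 37 °C. The 45 °C arm had 329.3 CPM before heating and 296.5, 235.0, 160.2 and 144.7 CPM afterwards. The last 2 were the lowest levels of the 10 groups, and the log2 ratios were 0.12 (-0.26 to 0.50), -0.36 (-0.69 to 0.01), -0.99 (-1.44 to -0.52) and -0.56 (-0.98 to -0.14) at the 4 times. Pdia4, a larger isomerase of the same complexes, rested on the fewest UMIs of the 3, at 50.7, 50.5, 53.3, 23.1 and 38.2 CPM at 37 °C and at 74.9, 66.7, 43.5, 23.5 and 34.3 CPM at 45 °C. None of its intervals excluded 0, and at 10 h its control level came from 4 UMIs, so a difference was not detectable at this depth. Its ratio at 5 h went from -0.35 to 0.30 without 1 of the 6 control cells, cell 6.

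**Figure D2:**
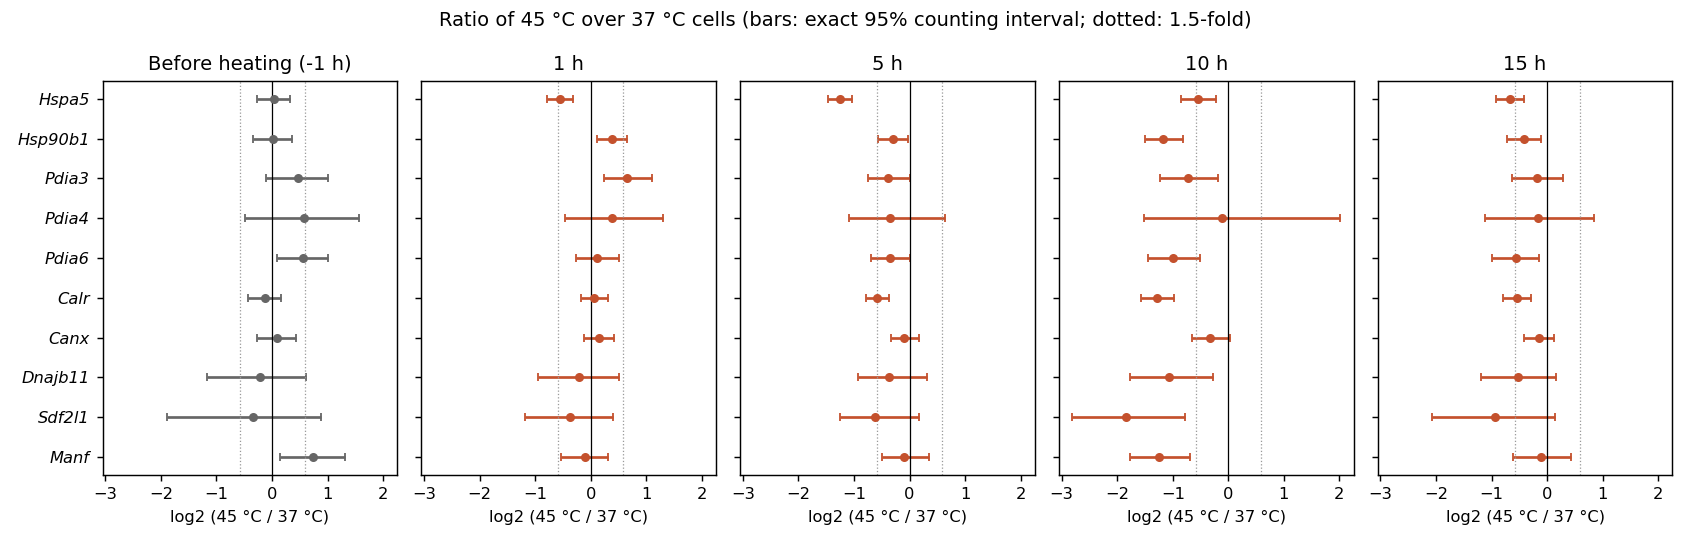
Log2 ratio of the 45 °C over the 37 °C group (x axis) for each of the 10 genes (y axis), in 1 panel for each time, with exact 95% intervals for counting error; dotted lines mark 1.5-fold. At 1 h Hspa5 lies at -0.56 while Hsp90b1 and Pdia3 lie at 0.38 and 0.66, and at 10 h 7 of the 10 genes lie past the left dotted line.

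Set beside all genes, the gap between the members' median and that of all measured genes was widest at 10 h. A gene counted as measured in a comparison if its UMIs in both groups came to 20 or more and its level reached 10 CPM in either. At 1 h 4 of the 10 members were lower in the heated cells, where 63% of 5273 measured genes were. At that time 0 members were at least 1.5-fold lower (19.6% of measured genes), 1, Pdia3, was at least 1.5-fold higher (5.71%), 2 lay below all 6 unheated groups (16.7%) and 3 above them all (9.25%). With 1 unheated cell left out these were 1 to 2 (1 without cell 1 or 4 of the 37 °C group at 10 h, cell 11 of that at 15 h or cell 6 of the 45 °C group before heating) and 1 to 4 (1 without cell 4 of the 37 °C group at 5 h). The median log2 ratio of the members was 0.09, and that of all measured genes -0.14.

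At 5 h 10 of 10 members were lower, where 63.2% of 7581 measured genes were. Hspa5 and Sdf2l1 made 2 members at least 1.5-fold lower, while 30.5% of measured genes passed that fold, so the share was near or below that of all genes. Hspa5 alone was at least 2-fold lower (15.2% of measured genes), and 3 members lay below all unheated groups (18.4%), or 2 to 4 with 1 unheated cell left out (2 without control cell 11 at 15 h or cell 5 or 6 of the 45 °C group before heating). The median was -0.36, against -0.23 for all measured genes, and -0.14 relative to that median.

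At 10 h 10 of 10 members were again lower, where 49.5% of 6440 measured genes were. Of the members 7 were at least 1.5-fold lower (19.2% of measured genes), 5 at least 2-fold lower (7.22%) and 9 below all 6 unheated groups (15.4%); the exception to the last was Pdia4, and without control cell 11 at 15 h also Pdia3. The 5 were Hsp90b1, Calr, Dnajb11, Sdf2l1 and Manf, and Pdia6 was just short, at 1.99-fold. The median was -1.03, against 0.003 for all measured genes. The control at this time was the shallowest group and its members stood high: their median log2 ratio over the 37 °C cells before heating was 0.36. Against the mean of the 6 unheated groups the median at 10 h was -0.84, with 8 members at least 1.5-fold lower. Without the 7 cells dominated by Rn45s it was -1.00.

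At 15 h 10 of 10 members were lower, where 51.8% of 6346 measured genes were. Only Hspa5 and Sdf2l1 were at least 1.5-fold lower (2 of 10, with 12% of measured genes), 0 at least 2-fold lower (2.17%), and 9, all but Pdia4, lay below all unheated groups (13.3%). The median was -0.47, against -0.02 for all measured genes. The count depended on the control: it was 7 against the mean of the 6 unheated groups and 1 without control cell 11, while leaving out control cell 9 gave 5. Without cell 11 the median was -0.35, and Pdia3 had a ratio of 0.02, so that 9 of 10 members were lower and 8 lay below all unheated groups. The members of the 37 °C group at 15 h themselves lay a median of -0.13 from the 37 °C cells before heating, and 10 of 10 were lower there (49.9% of 5690 measured genes).

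Between unheated groups the members' medians ran from -0.13 to 0.36, so the largest was close in size, though not in sign, to the -0.36 of the heated cells at 5 h. The 45 °C arm before heating had a median log2 ratio of 0.06 over the 37 °C arm, with 3 of 10 members lower (49% of measured genes), 0 at least 1.5-fold lower (12.8%) and 1 at least 1.5-fold higher (11.8%). The 37 °C groups at 1, 5, 10 and 15 h had medians of 0.13, 0.25, 0.36 and -0.13 over the 37 °C group before heating, which these 4 comparisons share. Of the members, 0 were at least 1.5-fold lower at 1, 5 and 15 h (8.76%, 14.7% and 10.9% of measured genes), and 1 at 10 h, Pdia4 with 4 UMIs (13.7%). Sdf2l1 and Manf were the 2 at least 1.5-fold higher at 1 h (10.9%) and again at 10 h (12.9%). At 5 h Sdf2l1 and Pdia3 were (11.6%).

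The members did not stand lower in step. Of all UMIs of the 10 genes, Hspa5 made up 22.3% (95% exact binomial interval 20.2 to 24.6) in the 37 °C arm and 21.2% (18.1 to 24.5) in the 45 °C arm before heating. At 1 h its share was 25.3% (23 to 27.7) at 37 °C and 16.9% (15.1 to 18.9) at 45 °C. At 5 h it was 21.7% (19.1 to 24.6) and 12.7% (12.3 to 13.2). At 10 h it was 17.3% (14.4 to 20.5) at 37 °C and 21.7% (19.9 to 23.7) at 45 °C, and at 15 h 23.5% (21.1 to 26) and 19.9% (17.8 to 22.1). Hspa5 thus held a smaller part of ER chaperone RNA in heated cells than in the control of the same time at 1 and 5 h, with intervals apart. The 1 h control had the highest share of the 10 groups, and the heated share at 1 h was close to the 17.3% of the 37 °C group at 10 h. Only the heated share at 5 h lay below every unheated group. At 10 h the heated share was not smaller than the control's, and the other genes stood lower too. From 5 to 10 h the heated level of Hspa5 went from 335.1 to 421.5 CPM while those of Calr, Hsp90b1 and Manf went from 540.7 to 322.5, from 410.0 to 265.3 and from 189.6 to 105.1 CPM.

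**Figure D3:**
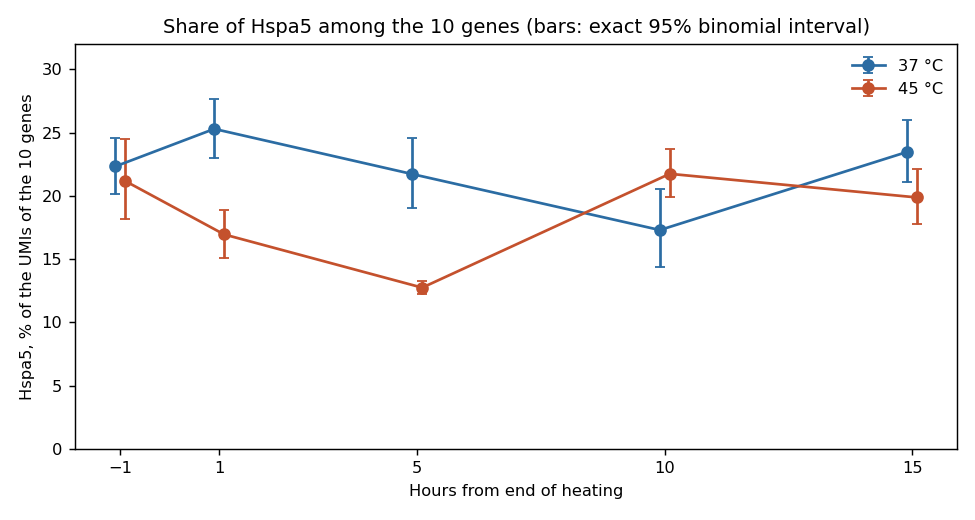
Share of Hspa5 among the UMIs of the 10 genes (y axis, percent) against hours from the end of heating (x axis), in the 37 °C arm (blue) and the 45 °C arm (orange), with exact 95% binomial intervals for counting error. The heated arm is at 16.9% at 1 h and 12.7% at 5 h, below the control, and at 21.7% at 10 h.

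From 5 h on most heated cells lay below the median control cell. The summed level of the 10 genes in the median cell was 3886 CPM at 37 °C and 3530 CPM at 45 °C at 1 h, 3305 and 2534 CPM at 5 h, 3526 and 1709 CPM at 10 h, and 2784 and 1846 CPM at 15 h. Below the control's median cell lay 9 of 13 heated cells at 1 h, 82.1% of the heated cells at 5 h, 51 of 52 (98.1%) at 10 h and 18 of 21 (85.7%) at 15 h. Below the lowest control cell lay 0 heated cells at 1 h, and 72 (32.3%), 38 (73.1%) and 6 (28.6%) at the later times. Each of these counts hangs on 1 control cell, so they cannot be compared between times. At 1 h that cell stood at 983.4 CPM and the next at 2621 CPM. At 15 h it stood at 1401 CPM and the next at 1987 CPM. For Hspa5 alone, 13 of 13 heated cells at 1 h and 94.2% of those at 5 h were below the control's median cell. For Canx at 5 h it was 87 cells (39%).

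**Figure D4:**
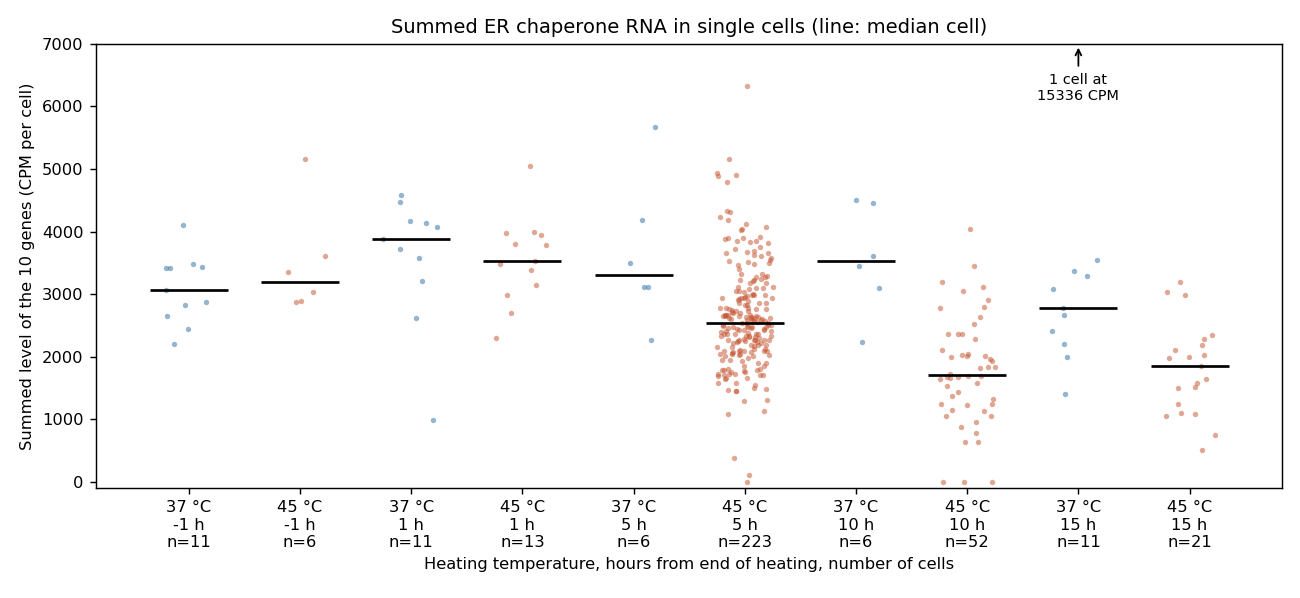
Summed level of the 10 genes in each cell (y axis, CPM of that cell; 1 point per cell, spread sideways at random) in the 10 groups (x axis), with a line at the median cell of each group. The medians are 3530, 2534, 1709 and 1846 CPM in the heated groups from 1 to 15 h, and 1 control cell at 15 h lies off the axis at 15336 CPM.

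Single heated cells at 5 h still differed widely in Hspa5. Its lowest, median and highest cell stood at 0, 266.6 and 1938 CPM, where the 6 control cells stood at 179.4, 792.3 and 1245 CPM. A range grows with the number of cells. The standard deviation was 249.6 CPM around a mean of 324.5 CPM in heated cells, and 417.2 CPM around 733.2 CPM in control cells. With means so unlike and 6 control cells, these values do not show which group spread more. For Calr the heated cells stood at 0, 496.2 and 1718 CPM and the control cells at 538.2, 805.8 and 1098 CPM. To compare cells of unequal depth, each was thinned at random to 5000 UMIs, which left out 1 heated cell. A UMI of Hspa5 was then found in 71.2% of the heated cells (exact binomial interval 64.7 to 77%) and in 6 of 6 control cells, and without thinning in 97.3% of the heated cells. After thinning, Canx was found in 92.3% of the heated cells, Calr in 88.7%, Hsp90b1 in 82%, Pdia3 in 61.7%, Pdia6 and Manf in 60.4% each, Dnajb11 in 30.6%, Pdia4 in 19.4% and Sdf2l1 in 18.9%, where without thinning the shares ran from 66.4% (Pdia4) to 99.1% (Canx). The variance over the mean (Fano factor) of Hspa5 was 1.85, where 1485 genes with a mean of at least 0.5 UMI had a median of 1.13 and a 95th percentile of 1.72. Those genes were not matched to Hspa5 in mean. The control at 5 h had a factor of 1.2 for Hspa5, from 6 cells only. In the heated cells Hsp90b1 reached 1.57, and Calr, Canx, Pdia6, Manf and Pdia3 lay between 1.21 and 1.30.

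Within the heated cells at 5 h, correlations between members were small after thinning. Of the 45 pairs of members, 33 had a positive Pearson correlation across the thinned cells, with a median of 0.04 and a range of -0.10 to 0.31. The highest were Pdia3 with Canx (0.31, Spearman 0.28) and Hsp90b1 with Calr (0.24, Spearman 0.21). In the 47 thinned cells at 10 h the range was -0.23 to 0.43 and the median 0.07. These cells come from 1 group each and the counts are sparse, so the values are descriptions, and without thinning the medians were 0.22 and 0.36. Hsp90b1 with Calr had 0.71 at 5 h without thinning. Sparse counts lower a correlation, and no pairs of other genes were set beside these. Whether members were tied more or less than other genes was thus not tested. The genes most like Hspa5 across these cells, of 1484 candidates, were Tmsb4x (0.30), Selenot (0.24), Cd160 (0.23), Cdkn2a (0.23) and Atf4 (0.23). The nearest member, Manf, had rank 42 (0.16).

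Over the 10 groups, genes outside the set were ranked by the correlation of their log2 level with that of Hspa5. The ranking held 2483 genes with enough UMIs and left out the members and all genes of the other lists described below. Predicted genes aside, its highest Pearson correlations were those of Pclaf (0.92), Fam120a (0.90), Kmt5a (0.89), Crip1 (0.87) and Dmac1 (0.87). Pclaf, a PCNA-associated factor, stood at 206.9 CPM in heated cells and 623.5 CPM in control cells at 5 h. The other 9 members correlated with Hspa5 between 0.38 (Pdia3) and 0.72 (Calr). The 10 points share the low heated groups, so these values are descriptions of the 10 groups only.

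The 5 other ER lists had medians nearer 0 than the members at 5 h and at 10 h. This did not hold at the other times, since the genes of ER stress signalling had medians further from 0 than the members at both, and those of degradation at 1 h, as did the KDEL receptor list. Of 32 other ER folding factors, 27 were measured at 5 h, with a median log2 ratio of -0.21 and 7 at least 1.5-fold lower (30.5% of all measured genes were). At 10 h 26 were measured, with a median of -0.24 and 9 at least 1.5-fold lower (19.2% of all). The medians at 1 and 15 h were 0.08 and -0.26. P4hb, the founding disulfide isomerase, had ratios of 0.56, -0.04, -0.16 and 0.20 at 1, 5, 10 and 15 h, and Ppib, an ER prolyl isomerase, 0.42, 0.05, 0.28 and 0.01. At 10 h P4hb (-0.54 to 0.25) and Ppib (-0.11 to 0.72) thus had intervals above those of Hsp90b1 and Calr. Sil1, the nucleotide exchange factor of the HSP70, had -1.16 (-2.11 to 0.17) at 5 h from 8 control UMIs, 0.82 at 1 h and -0.59 at 15 h, and was not measured at 10 h. Tmx4, a membrane-bound isomerase, had 1.32 (-0.61 to 7.21) at 5 h and 1.20 (-0.90 to 7.13) at 10 h, each from 1 control UMI, was not measured at 1 h, and had -0.72 at 15 h.

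The genes that sense ER stress or carry its signal stood mostly lower at 1 and 15 h and on both sides of the control between. Of 14 listed, 7 were measured at 1 h, with 6 lower (63% of all measured genes were) and a median log2 ratio of -0.51. At 5 h 12 were measured, with 5 at least 1.5-fold lower (30.5% of all measured genes), 4 at least 1.5-fold higher (12.5%) and a median of -0.28. At 10 h the median was 0.10 over 11 genes. At 15 h 6 were measured, with 5 lower (51.8% of all), 4 at least 1.5-fold lower (12%) and a median of -0.59. Of the 4, Atf6b (-1.49 to 0.31) and Nck1 (-1.69 to 0.50) were just past the limit, at 1.51-fold. Their intervals and that of Creb3 (-2.06 to 0.41) held 0, and that of Atf4 (-1.08 to -0.49) did not. The control at 15 h also held cell 11, which stood highest of all cells for the sum of this list. Atf4, the transcription factor downstream of PERK, stood at 599.9, 312.5, 428.6 and 268.5 CPM in heated cells and at 856.7, 500.5, 502.1 and 462.8 CPM in control cells. Its log2 ratios were -0.51, -0.68, -0.23 and -0.79, and from 5 h on it was below all unheated groups. Trib3, a target of that pathway, had 334 UMIs (49.1 CPM) in heated cells and 0 in control cells at 5 h, at least 3.99-fold higher against a floor of 3 counts over the group. The heated level lay inside the range of the unheated groups, which was 0 to 89.8 CPM, with 50.7 CPM at 37 °C and 89.8 CPM at 45 °C before heating, so the fold rests on the 6 control cells at 5 h. Its ratios were -0.66 at 1 h and 1.20 (-0.47 to 4.61) at 10 h, and it was not measured at 15 h. Mbtps1, the protease that releases ATF6, had -0.96, -1.41, 0.74 and 0.10. Creb3, a membrane-bound transcription factor, was not measured at 1 h and had -2.19 (-3.03 to -1.13), -0.18 and -0.81 at the later times. Its control at 5 h, 49.2 CPM, was the highest unheated group, where the others stood at 17.3 to 31.5 CPM and the heated cells at 11.2 CPM.

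For ER-associated degradation the medians were -0.37, -0.05, -0.07 and 0.26 at the 4 times, over 19 to 21 of 22 genes. Herpud1 stood at 85.6 CPM in heated cells and 16.4 CPM in control cells at 5 h, a log2 ratio of 2.21 (1.02 to 4.26) from 4 control UMIs, and at -0.65, 0.38 and -0.23 at the other times. That 5 h control was the lowest of the unheated groups. The highest of them, the 45 °C cells before heating, stood at 64.9 CPM, so the size of the ratio rests on the control cells at 5 h. Edem3, a mannosidase-like factor, had -0.47, -1.50, -0.30 and 0.85. Vcp, the ATPase that extracts clients, had 0.14, -0.38, -0.19 and -0.19, and Ubxn4, its ER adaptor, -0.18, 0.23, -0.09 and 0.24.

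For the translocon, signal peptidase and oligosaccharyltransferase the medians were -0.04, -0.01, -0.37 and -0.30, over 26 of 26 genes, and 20 of them were lower at 10 h (49.5% of all measured genes were) and 22 at 15 h (51.8%). Sec61b, a subunit of the channel, had 0.24, 0.11, -0.20 and -0.39, and Ssr2, of the complex beside it, -0.07, 0.19, 0.21 and -0.56. The receptor subunits for the signal recognition particle had -0.26, -0.70, -1.14 and -0.27 (Srpr) and -0.79, 1.02, -0.03 and -0.08 (Srprb). For KDEL receptors, which return these chaperones to the ER, and ER to Golgi carriers the medians were -0.11, -0.01, -0.12 and -0.37. Tmed2 and Tmed10, cargo receptors of one family, had 0.22, 0.41, -0.11 and -0.07, and 0.22, -0.51, -0.51 and -0.44. Lman2, a cargo lectin, had -0.17, -0.22, -0.22 and -0.35. Mcfd2, the partner of another cargo lectin, had 14.98 CPM against 0 at 5 h, at least 1.22-fold higher against the floor but inside the unheated range of 0 to 22.5 CPM, and was not measured at the other times.

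The chaperones of the cytosol had medians above the control at all 4 times, where those of the members lay below it from 5 h on. Of 22 listed, 20 were measured at 5 h; 11 were at least 1.5-fold higher (12.5% of all measured genes) and 0 at least 1.5-fold lower (30.5%), with a median of 0.81, or 0.70 with the 2 genes without control UMIs set to the floor. The medians at 1, 10 and 15 h were 0.22, 0.49 and 0.22, with 4 of 16, 5 of 17 and 6 of 16 genes lower (63%, 49.5% and 51.8% of all measured genes). Between unheated groups the list's median was 0.11 for the 45 °C over the 37 °C arm before heating. The 37 °C groups at 1, 5, 10 and 15 h had -0.14, 0.23, 0.12 and 0.18 over that at -1 h. The medians at 1 and 15 h after heating were thus no higher than the highest between unheated groups. Hsp90aa1, the cytosolic relative of Hsp90b1, had log2 ratios of 0.32, 1.68, 1.49 and 1.15, and Hsp90ab1 0.25, 0.88, 0.75 and 0.46. At 10 h the ER form of HSP90 was thus at -1.17 and the cytosolic forms at 1.49 and 0.75. Hspa1a, an inducible cytosolic HSP70, had 639 UMIs (93.8 CPM) against 0 at 5 h, at least 7.63-fold higher against the floor, and 29 against 0 at 10 h, at least 1.71-fold; reads could be split with its near copy Hspa1b. Hspa4, an exchange factor of cytosolic HSP70, had -0.38, -0.40, -0.34 and 0.19. Mitochondrial chaperones had medians of 0.08, 0.14, -0.05 and 0.04 over 8 to 10 of 10 genes. The chaperonin pair stood at 0.07, 0.93, 0.59 and 0.20 (Hspd1) and at 0.32, 1.19, 0.98 and 0.33 (Hspe1), and the disaggregase Clpb at -0.55, 0.44 and -0.03 at 5, 10 and 15 h.

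**Figure D5:**
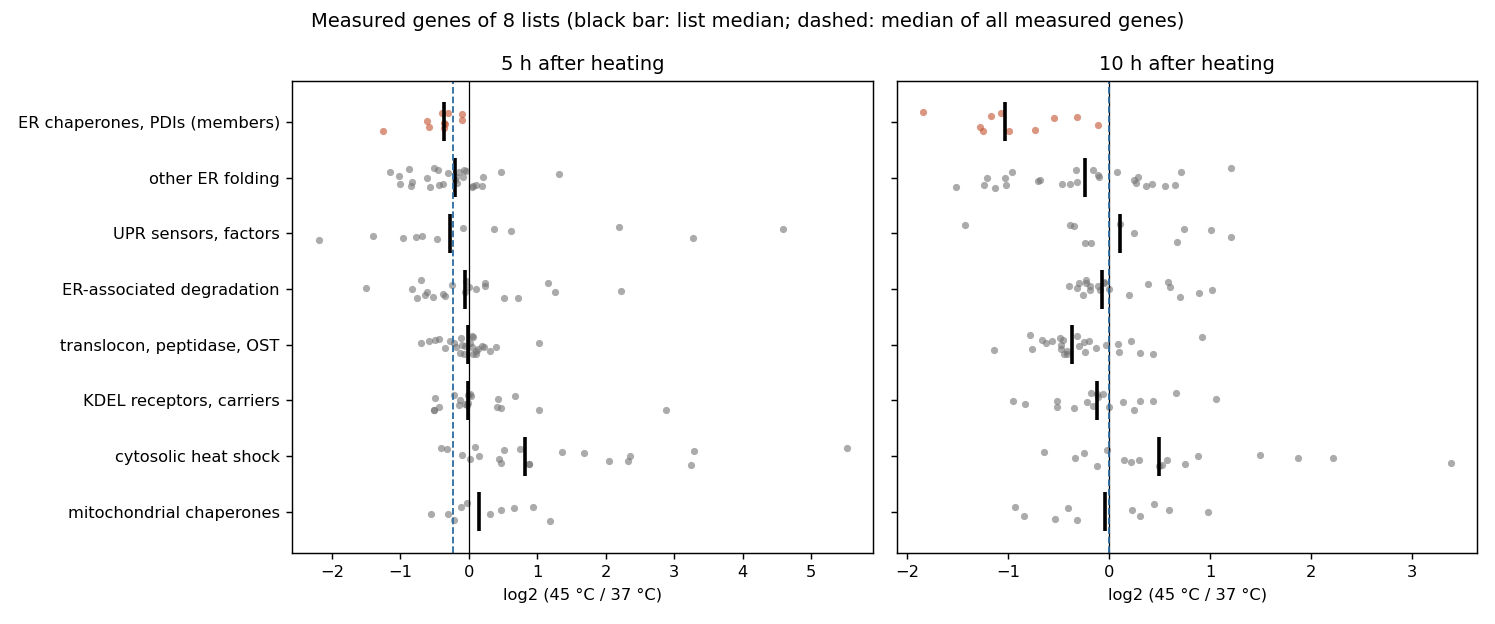
Log2 ratio of 45 over 37 °C (x axis) of the measured genes of 8 lists (y axis; 1 point per gene, spread vertically at random) at 5 h and 10 h, with a black bar at each list's median and a dashed line at the median of all measured genes; genes without control UMIs are drawn at the ratio with 0.5 UMI added, which is no bound. The members' medians are -0.36 and -1.03, those of the cytosolic heat shock chaperones 0.81 and 0.49.

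In the GENCODE annotation of the same assembly (GRCm38, the build named mm10) Hspa5 lies at chr2:34771970-34777547 and Sdf2l1 at chr16:17130138-17132383, both with no overlapping gene, as do Calr at chr8:84841850-84846934 and Canx at chr11:50293961-50325673. Hsp90b1 (chr10:86690209-86705509) overlaps 1810014B01Rik, Pdia3 (chr2:121413775-121438687) Catsper2, Pdia6 (chr12:17266545-17284770) Atp6v1c2 and Dnajb11 (chr16:22857845-22879634) Gm30505, each on the opposite strand. Pdia4 (chr6:47796141-47813430) holds the microRNA gene Mir704, and Manf (chr9:106838312-106891979) overlaps Dcaf1 and Rbm15b. Whether counting used strand is not given in the sources used here, so reads of these overlaps cannot be assigned with certainty. Values that were not whole numbers, as arise when a molecule is split between genes, held 0.42% (Dnajb11) to 8.47% (Calr) of a member's UMIs.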

How the data were processed

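The deposited table gives, for each gene in each of the 360 cells (223 of them heated cells at 5 h), an estimated count of UMIs without scaling. Of its values above 0, 5.30% are not whole numbers. STAR and mm10 stand among the tools and builds listed, per the submitters' processing notes, and how UMIs were counted, on which annotation and after which cell filter is not stated in the labels. Per the labels' protocols, cDNA was primed from poly(A) tails with a molecular barcode. Whole counts had been assumed; sums over the cells of a group were rounded instead. Log2 ratios, exact Clopper-Pearson and Poisson 95% intervals, thinning (seed 1) and correlations were computed in Python 3.11.15 with numpy 2.4.6, pandas 2.3.3 and SciPy 1.17.1, and tested on simulated data. No test across genes was possible with 1 sample a group.

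The members, the 7 other lists and the markers were chosen with earlier results of these data known. From each list were named the genes with the largest and smallest ratio at 5 h and the 2 with the most UMIs. Further genes of ER stress signalling were named at 5 and 15 h because of their values. Likeness to Hspa5 was ranked among genes with at least 50 CPM in a group and 10 UMIs in each (5 named, predicted and listed genes aside), and across thinned cells. Alternatives were other control groups, scalings, cell and gene filters, added UMIs and each cell left out. The ER stress element II, the exclusion of Rn45s-rich cells, that of control cell 11 and the levels against all unheated groups with each unheated cell left out were added after seeing the data. Protein sequences were not used here.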

Additional observations from a re-analysis of the deposited data

Results flagged for a closer look

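In the 3 groups of 6 cells, each member and the members' sum were checked for a cell far from the other 5, and 4 of 33 sets of values had one; chance gives about 1 in 20. In the 45 °C group before heating, cell 3 (18583 UMIs, the shallowest of the 6) stood highest for Calr at 968.7 CPM from 18 UMIs, where the next cell had 677.6 CPM. The same cell stood highest for Manf at 645.8 CPM from 12 UMIs, with the next at 214.4 CPM. Its sum of the 10 genes was 5166 CPM, with the next at 3609 CPM. In the 37 °C group at 10 h, cell 5 stood lowest for Calr at 266.2 CPM from 8 UMIs, with the next at 754.6 CPM.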

How the results depend on the processing

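Every group is 1 sample, and the controls at 5 and 10 h are 6 cells each, so intervals leave out differences between cells and cultures. No paired analysis was possible because the result comes from no test. The members' median log2 ratio kept its sign at 5, 10 and 15 h under all alternatives run, and at 1 h it lay between -0.002 and 0.23. With the 6 unheated groups as control it was -0.84 at 10 h and -0.81 at 15 h, and the members at least 1.5-fold lower were 1 at 5 h and 7 at 15 h. With the 45 °C cells before heating as control it was -0.83 at 10 h and -0.81 at 15 h, with 8 members at 15 h, and Sdf2l1 at 5 h reversed to 0.48. Relative to the median of all genes it was -0.14 at 5 h, with 1 member. With the mean of per-cell CPM, in which cell 11 weighs as much as any other, it was -1.13 at 15 h, with 7 members. With cells of at least 10000 UMIs, or without control cell 11, 1 member remained at 15 h, Sdf2l1. With 1 cell left out the count ran from 0 to 1 at 1 h, from 1 to 3 at 5 h, from 7 to 8 at 10 h and from 1 to 5 at 15 h; the extremes came without 37 °C cells, cell 8 at 1 h, cells 5 and 1 at 5 h, cell 3 at 10 h and cells 11 and 9 at 15 h. The share of all genes at least 1.5-fold lower was 29.5%, 47.4%, 30.3% and 19.2% at the 4 times with a minimum of 1 UMI, and 5.55%, 22.6%, 13% and 6.72% with 100 UMIs.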

Other observations

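One cell stood apart for ER RNA and was picked out after its values were seen. It is cell 11 of the 37 °C group at 15 h, which had 7759 UMIs and 2336 genes detected, where the other 10 cells of its group had 4898 to 7865. Its 10 ER chaperone and isomerase genes summed to 15336 CPM, and the highest of the 359 other cells had 6326 CPM. Hspa5 stood at 5155 CPM, Calr at 4382, Pdia6 at 1804 and Pdia3 at 1289 CPM, each the highest of all cells, while Canx was at 515.5 CPM, inside the range of its group, and Manf had no UMI. The translocon, signal peptidase and oligosaccharyltransferase genes summed to 18816 CPM (4063 to 6164 CPM in the other cells of the group) and the KDEL receptors and ER-Golgi carriers to 9923 CPM (1852 to 3042 CPM), both the highest of all cells. The genes of ER stress signalling, at 2062 CPM from 16 UMIs, were also the highest, but only just, as the next cell had 1956 CPM. Other ER folding factors summed to 4639 CPM, with 2 other cells at or above that. For ER-associated degradation, at 2126 CPM, 34 other cells were. Hmgcs1 (2835 CPM), Zfp575 (6573 CPM) and Ccdc126 (1418 CPM) were also the highest of all cells there. Cytosolic heat shock chaperones summed to 8248 CPM, below the other 10 cells of the group (10784 to 14665 CPM), and mitochondrial chaperones to 3995 CPM, inside their range.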
